A study of Mus musculus with 2 samples.

Results

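RNA was measured for 10 transcription factor genes that act when cartilage cells mature: Runx1, Runx2, Runx3, Sp7, Mef2c, Mef2d, Dlx5, Dlx6, Foxa2 and Foxa3. They are 10 of the 20657 genes that the array covers by a named probe. Their probes were taken as the non-control spots named for a RefSeq transcript of one of these genes, which gave 15 probes, 2 each for 5 genes and 1 each for the other 5. The cells were ATDC5, a mouse chondrogenic line that forms cartilage nodules in culture, in 2 stable sublines. In one, doxycycline (DOX) induced A-CEBP, which dimerises with C/EBP factors and, as a dominant negative, blocks their binding to DNA. In the other it induced GFP, the control protein. Both groups shared the same schedule, per the labels, with DOX at 2 µg/mL for 2 days and 3 weeks of insulin, transferrin and selenite (ITS), the mix that starts chondrogenesis. Each group was 1 sample on 1 array from 1 subline, so no difference between cultures could be tested, and line, culture and transgene cannot be told apart. No spot was named for either transgene, so its expression was not checked.

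A growth plate chondrocyte first proliferates, then stops dividing and swells into a hypertrophic cell that makes type X collagen and mineralises its matrix. RUNX2, with its partner CBFB, drives this step, RUNX3 shares part of the task, and RUNX1 is the family member known mainly from blood and from early cartilage. MEF2C turns on hypertrophic genes unless class IIa histone deacetylases hold it in check. DLX5 and DLX6 promote maturation, FOXA2 and FOXA3 act late in hypertrophic cells, and SP7 (osterix) lies downstream of RUNX2 in bone and late cartilage.

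Of these 10 genes, 9 had a higher signal in the A-CEBP sample and 1, Runx1, a lower one. The direction alone says little, because 59.1% of the 13860 genes measured on both arrays were higher. By size, 5 genes were at least 1.5-fold higher: Sp7, Foxa3, Dlx5, Runx3 and Foxa2. The background of that call was 4.70% of all genes. None of the 10 was at least 1.5-fold lower, against 3.80% of all genes, and none was 2-fold apart, where 1.26% of all genes were higher and 1.70% lower. The median log2 difference (A-CEBP minus GFP) was 0.64 over the 10 genes and 0.05 over all genes. In RNA from a whole culture, more cells of a type and more RNA per cell cannot be told apart.

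**Figure D1:**
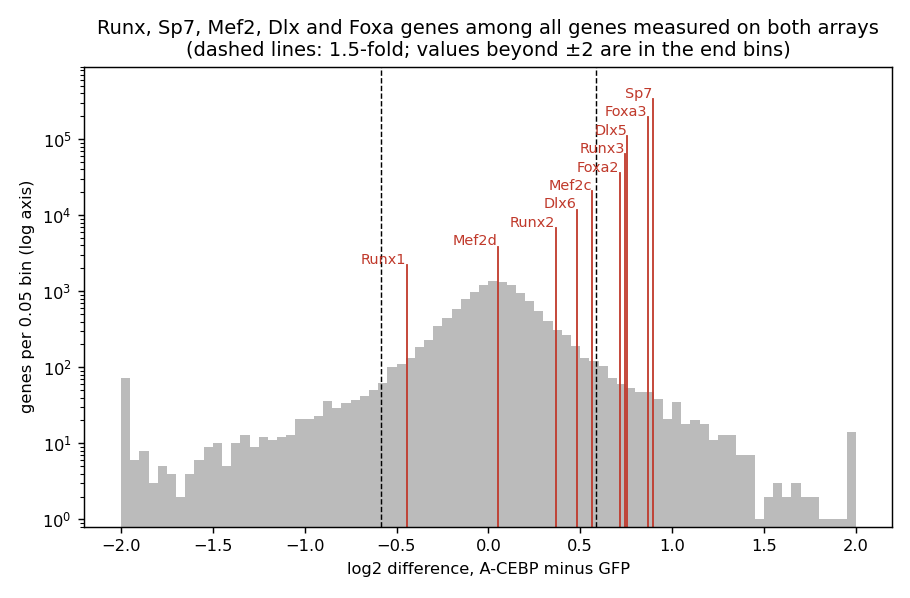
Grey bars count the 13860 genes measured on both arrays by their log2 difference, A-CEBP minus GFP (x axis), on a log axis (y axis). Red lines mark the 10 transcription factor genes, from -0.45 for Runx1 to 0.89 for Sp7, with 5 beyond the 1.5-fold line on the right.

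All 15 probes were well above background on both arrays, the scanner software's mark for a spot clearly brighter than its surroundings. All 10 genes were thus measured, where 67.1% of genes with a named probe were. Levels below are log2 processed signals minus the 75th percentile of the array, so 0 is that percentile, and they are compared between arrays only, never between probes. Each probe had 1 spot and none carried an outlier mark. The scanner's error model gave an error of 0.20 to 0.24 for the log2 difference of these probes. By other measures of error, the SD of the log2 difference was 0.11 over replicate spots of a probe (root mean square over 291 probes) and 0.19 between probes of a gene (3601 genes). These cover the measurement, not the spread between cultures. Of the 15 probes, 11 differed by more than 2 times their error. The share of all probes that did so was not counted, so this count has no background to be set against. Over all 13860 genes the SD of the log2 difference was 0.42. The spots within 2 rows and columns of each probe, 7 to 16 of them well above background on both arrays, had median differences from -0.21 to 0.16.

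**Figure D2:**
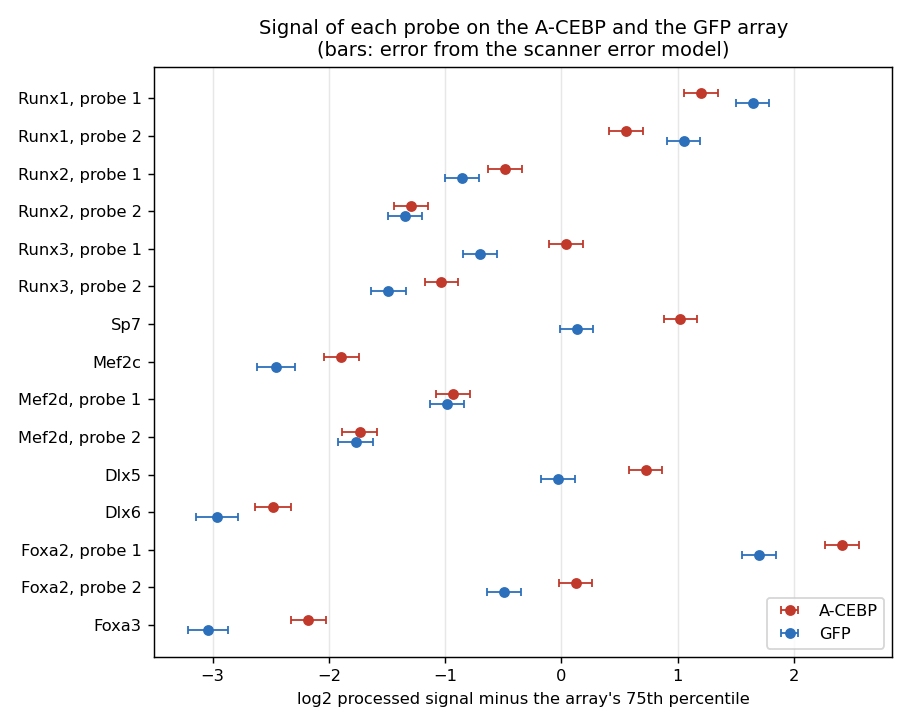
Points give the log2 processed signal minus the array's 75th percentile (x axis) of each of the 15 probes (rows) in the A-CEBP and the GFP sample, 1 array each, with bars for the error of the scanner's error model. Both Runx1 probes lie lower in A-CEBP, and the probes of Mef2d overlap between the arrays.

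The Runx genes encode proteins that share a DNA-binding Runt domain, and they did not differ alike. Runx1 stood at 1.20 in the A-CEBP sample and 1.64 in the GFP sample on its brighter probe, a difference of -0.45 (1.36-fold lower). On its other probe, named for another Runx1 transcript, it stood at 0.56 in A-CEBP and 1.05 in GFP (-0.49). Both Runx1 probes were thus lower in A-CEBP, by more than 2 times their error of 0.20. Of all measured genes, 5.70% had a difference at or below that of Runx1. Runx2, the main driver of hypertrophy, stood at -0.48 in A-CEBP and -0.85 in GFP, a difference of 0.37 (1.29-fold higher). Its other probe read -1.29 in A-CEBP and -1.34 in GFP, a difference of 0.05, inside its error of 0.21. The Runx2 probes thus differed in size, by 0.31, but not in sign, and the gap between the Runx3 probes was similar (0.28). Whether the probes of a gene differ beyond their errors was not tested. A higher Runx2 level rests on the brighter probe, whose difference was 1.77 times its error of 0.21. That is short of the 2 times that both Runx1 probes passed. Runx3 stood at 0.04 in A-CEBP and -0.70 in GFP, a difference of 0.74 (1.67-fold higher). Its other probe read -1.03 in A-CEBP and -1.49 in GFP, a difference of 0.46, under 1.5-fold but still above 2 times its error of 0.21. Both Runx3 probes were thus higher in A-CEBP, and 97.2% of all genes had a difference at or below that of the brighter one.

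The 250 bases before the most upstream listed start of each Runx gene are shown because the 3 genes did not differ alike. They come from RefSeq tables of build GRCm38.p6, read 5′ to 3′ on the strand of the gene. Capitals mark the letters of a C/EBP motif (TTGCNNAA) or a Runx motif (TGTGGT or TGCGGT), searched on both strands. No capital overlaps another motif here.
Runx1, chr16:92826075-92826324, minus strand: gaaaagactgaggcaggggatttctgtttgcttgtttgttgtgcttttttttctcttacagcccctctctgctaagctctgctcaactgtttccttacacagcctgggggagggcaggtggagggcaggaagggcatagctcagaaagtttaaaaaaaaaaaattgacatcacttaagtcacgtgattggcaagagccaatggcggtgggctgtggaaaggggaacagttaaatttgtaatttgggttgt
Runx2, chr17:44814628-44814877, minus strand: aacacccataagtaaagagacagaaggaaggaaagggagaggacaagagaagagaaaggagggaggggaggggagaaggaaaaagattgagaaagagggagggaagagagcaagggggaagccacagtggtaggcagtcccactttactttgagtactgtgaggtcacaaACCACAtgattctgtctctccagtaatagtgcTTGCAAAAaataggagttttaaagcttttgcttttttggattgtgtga
Runx3, chr4:135120395-135120644, plus strand: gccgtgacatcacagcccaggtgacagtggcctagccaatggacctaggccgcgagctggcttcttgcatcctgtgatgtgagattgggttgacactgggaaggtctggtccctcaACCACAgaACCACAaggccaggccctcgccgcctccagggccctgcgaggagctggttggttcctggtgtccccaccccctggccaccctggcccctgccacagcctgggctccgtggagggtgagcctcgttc
The Runx2 window held 1 C/EBP match, TTGCAAAA, 48 to 41 bases before the start. It also held 1 Runx match, ACCACA, 80 to 75 bases before the start. The annotated Runx2 gene runs from 44495987 to 44814797, so part of this window, with both matches, lies inside the gene. The Runx3 window held 2 Runx matches, 134 to 129 and 126 to 121 bases before the start, with 2 bases between them. The Runx1 window held neither motif. Tables had 13 such windows for 7 of the 10 genes: those of Runx1, Runx2, Runx3, Mef2c, Mef2d, Foxa2 and Foxa3. Of the 13, 1 held a C/EBP match, 2 held a Runx match and 0 held a Mef2 motif (CTA, any 4 bases, then TAG). Over all 32851 windows of that length in the table, the shares were 9.56% for C/EBP, 18.6% for Runx and 3.20% for Mef2. A match is a string of letters and shows no binding, and which start the measured RNA came from is not known.

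Sp7 had the largest difference of the 10 here, 0.03 above that of Foxa3 and so inside their error. Foxa3 exceeded it with quantile normalization and Dlx5 with normexp background. This zinc finger factor, needed for bone formation, read 1842 intensity units in A-CEBP against 955 in GFP before scaling. After scaling it stood at 1.02 in A-CEBP and 0.13 in GFP, a difference of 0.89 (1.86-fold higher), on 1 probe. Its difference was 4.38 times its error of 0.20 and ranked 240 of 13860 genes from the highest. The gene lies on chr15:102356603-102367035 (GRCm38.p6).

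Mef2c and Mef2d, 2 of the MADS-box factors that class IIa histone deacetylases restrain, differed from each other. Mef2c stood at -1.89 in A-CEBP and -2.45 in GFP, a difference of 0.56 (1.48-fold higher), just under the 1.5-fold size. Its error was 0.22. Mef2d stood at -0.94 in A-CEBP and -0.99 in GFP, a difference of 0.05, and its other probe at -1.74 in A-CEBP and -1.77 in GFP (0.03). Both Mef2d differences lay within their error of 0.21, and the sign turned with the authors' deposited values (-0.00079).

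Dlx5 and Dlx6 are neighbouring homeobox genes on chr6 of GRCm38.p6, at 6877801 to 6882068 and 6863334 to 6867970. Dlx5 stood at 0.73 in A-CEBP and -0.03 in GFP, a difference of 0.76 (1.69-fold higher). Dlx6 stood at -2.48 in A-CEBP and -2.96 in GFP, a difference of 0.48 (1.40-fold higher). The error was 0.20 for Dlx5 and 0.24 for Dlx6, so both were higher by at least 2 times their error. Each rests on 1 probe, and the spots around that of Dlx5 had a median of -0.21, opposite in sign to the gene.

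Foxa2 and Foxa3 encode forkhead factors that are best known from liver and gut, and that act in hypertrophic chondrocytes in mice. Foxa2 stood at 2.42 in A-CEBP and 1.70 in GFP, a difference of 0.72 (1.64-fold higher). Its other probe, at 0.12 in A-CEBP and -0.49 in GFP, differed by 0.62 (1.53-fold). Foxa2 was the 1 gene of these 10 for which 2 probes passed 1.5-fold. Foxa3 stood at -2.18 in A-CEBP and -3.04 in GFP, a difference of 0.87 (1.82-fold higher), with an error of 0.23. Its GFP signal, 106 intensity units, was 3.21 times the lowest value well above background on that array. For Dlx6 that ratio was 3.40 and for Mef2c 4.83, the nearest to background among the 15 probes. With normexp background correction these 3 genes differed by less: 0.46 for Foxa3, 0.18 for Dlx6 and 0.34 for Mef2c.

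**Figure D3:**
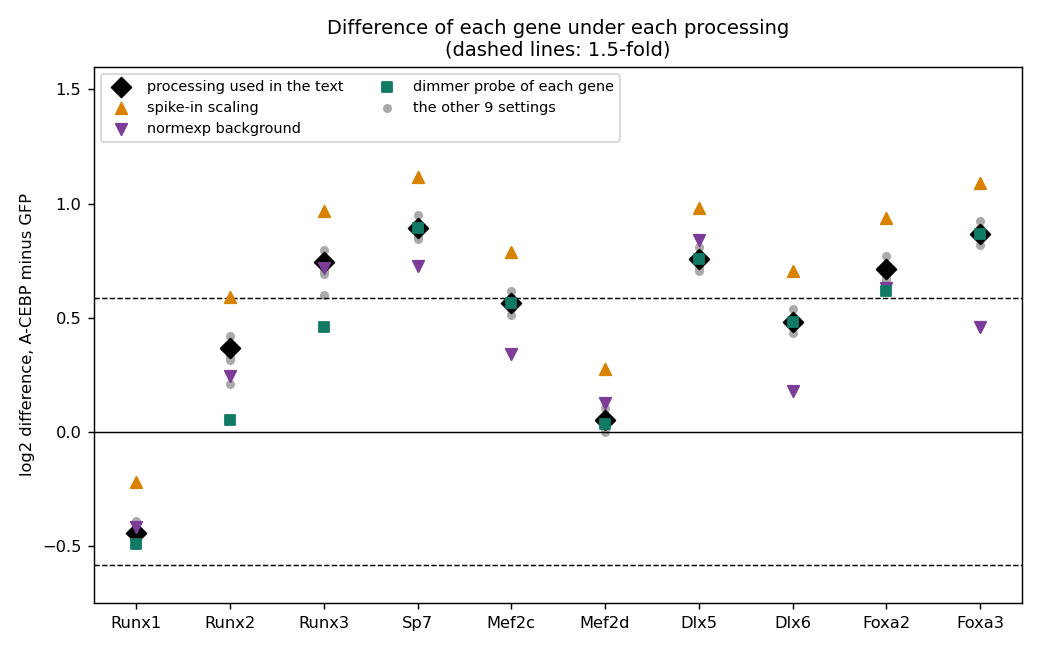
Each point is the log2 difference, A-CEBP minus GFP (y axis), of one gene (x axis) under one of 13 ways of processing, with dashed lines at 1.5-fold. Runx1 lies below 0 and Sp7, Dlx5 and Foxa2 lie beyond 1.5-fold in all 13, while Foxa3 and Runx3 drop below that line in 1 each. Keeping outlier-marked spots or dropping the filter on dim probes could not move these genes. Probe choice could not move those with 1 probe.

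Close relatives of these genes were measured as a list of 13, made of other Mef2, Dlx and Foxa genes and some, not all, of the other Sp genes. The 12 measured ones had a median of 0.02, with 0 past 1.5-fold upward and 1 downward, Sp9 (-0.82). For this and the next lists, the shares of all genes past that size were 4.70% upward and 3.80% downward. Dlx3, a Dlx gene of hair, tooth and bone, differed by 0.38, Dlx2 by 0.30 and Foxa1 by -0.31. Sp9 stood at -4.34 in A-CEBP, close to the detection limit of that array (-5.19), and differed by -0.43 with normexp background, under 1.5-fold. The list of Runx partners and cofactors had 25 measured genes, 2 at least 1.5-fold higher, 0 lower by that size, and a median of 0.17. Cbfb, the shared partner that Runx proteins need for stable DNA binding, stood at 5.58 in A-CEBP and 5.45 in GFP (0.13). Hes1, a Notch target that binds Runx2, was 2.27-fold higher (1.18). Its GFP level, -3.99, lay near the detection limit of that array (-4.73), and with normexp background it differed by 0.40, under 1.5-fold. Cbfa2t3, a corepressor of the ETO family, differed by 0.66 (0.35 on its other probe). Tle3, a Groucho corepressor, differed by 0.43. Smurf1, a ubiquitin ligase that marks Runx2 for degradation, differed by -0.48.

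The list around the control of Mef2 by histone deacetylases had 18 measured genes, 2 at least 1.5-fold higher and 0 lower, with a median of 0.21. These were Pth1r, the PTHrP receptor (0.67), and Pthlh, which encodes PTHrP, the signal that delays hypertrophy (0.59). Pthlh lay at the 1.5-fold line and passed it in 8 of 13 settings, with 0.34 under normexp background. Sik1, a kinase that phosphorylates class IIa deacetylases, differed by 0.45, and Camk2d, a calcium-dependent kinase, by -0.34, with its 3 probes from -0.72 to -0.34. Camk4 was well above background in A-CEBP alone and at least 1.43-fold higher. Among 22 other regulators of chondrocyte maturation, 3 passed 1.5-fold upward and 1 downward, and their median was 0.11. The hedgehog effectors Gli1 (1.33) and Gli2 (0.77) and the cartilage master regulator Sox9 (0.61) were higher, and Stat3, a factor of cytokine signalling, was lower (-0.68, and -1.02 on its other probe). Of these, Gli1 passed 1.5-fold in all 13 settings. Gli2 did not with normexp background (0.45), Sox9 with cyclic loess and the authors' deposited values (0.56 with these), and Stat3 with spike-in scaling (-0.46).

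Genes known as targets of these factors, or as products of hypertrophic cartilage, were counted without Sp7 and Mef2c. With 28 such genes measured, 9 passed 1.5-fold upward and 3 downward, and their median was 0.48. Of all genes, 4.70% passed it upward and 3.80% downward. Ihh, the hedgehog ligand of prehypertrophic cells, differed by 1.56, the mineralisation gene Dmp1 by 1.31 and the lectin gene Clec3a by 1.12. Col10a1, the collagen of hypertrophic cartilage and a direct target of RUNX2, stood at 5.09 in A-CEBP and 4.12 in GFP (0.97). Alpl, the phosphatase of mineralisation, differed by 0.83. The targets did not all lie on 1 side. Mmp13, a collagenase that RUNX2 activates, stood at 2.67 in A-CEBP and 3.74 in GFP, a difference of -1.07 (2.11-fold lower). The aggrecanase genes Adamts5 (-0.72) and Adamts4 (-0.63), named after their values were seen, were the other 2 lower ones. Both came under 1.5-fold with spike-in scaling, at -0.49 and -0.41. Spp1, which encodes osteopontin, differed by -0.40, and Ibsp, which encodes bone sialoprotein, by 0.15. Tnfsf11, the gene of RANKL, was well above background in A-CEBP alone and at least 2.01-fold higher. Its A-CEBP level was low, -3.72, and the bound allows for no measurement error.

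**Figure D4:**
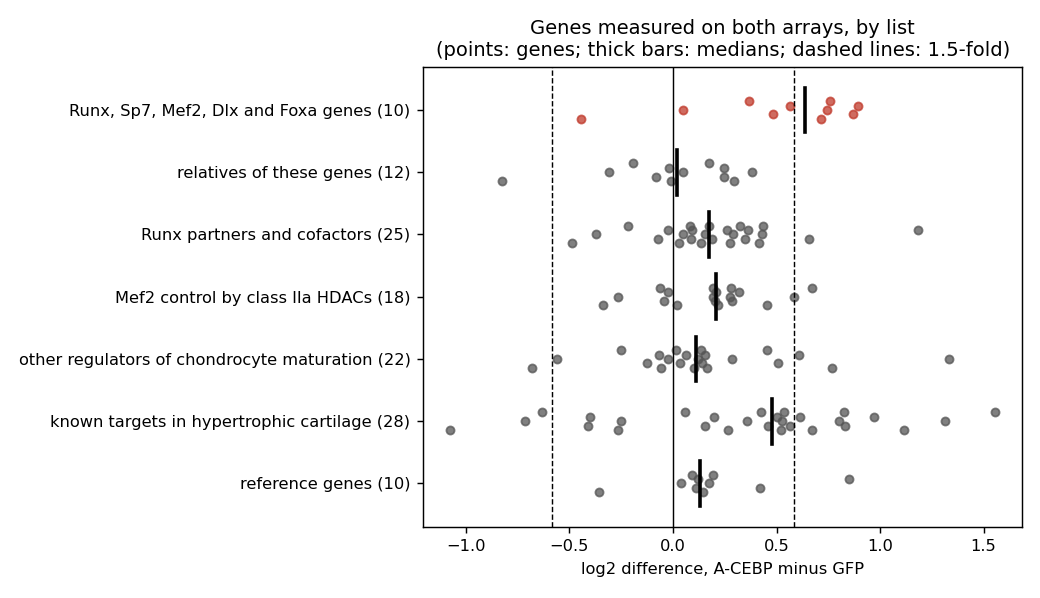
Points are genes measured on both arrays, placed by log2 difference, A-CEBP minus GFP (x axis), in 7 lists (rows, with the number of genes), and thick bars are medians. The median is 0.64 for the 10 transcription factor genes, 0.48 for targets in hypertrophic cartilage and 0.02 for relatives. The 12 measured chondrocyte markers, not drawn here, had a median of 0.63.

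Markers of the labelled cell type were present. Of 14 chondrocyte markers, 12 were measured on both arrays, Col9a3 was well above background in A-CEBP alone (at least 1.31-fold higher) and Matn3 on neither. Col2a1 stood at 8.65 in A-CEBP and 8.22 in GFP. The list's median was 0.63, near the 0.64 of the 10 transcription factor genes. It had 8 genes at least 1.5-fold higher (4.70% of all genes) and 0 lower by that size (3.80% of all genes). Hapln1 (1.42), Snorc (1.37), Acan (1.30) and Cnmd (1.02) differed most. Osteoblasts also use Runx2, Sp7 and Dlx5, and 10 of 11 osteoblast markers with a probe were measured, with a summed signal of 902575 units in A-CEBP and 696017 in GFP. Sums here are of unscaled intensity over all genes of a list with a probe, dim ones included, each gene as the mean of its spots. Their median was 0.34, and Dmp1, Omd (0.71), Bglap2 (0.43) and Mepe (0.36, but 0.16 with normexp background) differed most. Sost was not well above background on either array. Some of these genes, such as Ibsp and Dmp1, are shared with hypertrophic chondrocytes. The part of osteoblast-like cells in the differences was not tested.

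Blood cells use Runx1 and Runx3. Of 14 leukocyte markers with a probe, 7 were measured on both arrays and 7 were well above background on neither, Ptprc, Spi1 and Tyrobp among them. Itgam stood at 4.67 in A-CEBP and 4.43 in GFP, Cd4 at 1.44 in A-CEBP and 1.15 in GFP, and Csf1r at 0.63 in A-CEBP and 0.77 in GFP. The Csf1r difference was -0.14, but 0.36 on another probe, and its sign turned in 3 of 13 settings. The summed signal of that list was 10544 units in A-CEBP and 9456 in GFP. It averages in the dimmer probes of a gene and so lies below the brightest-probe signal of Itgam alone. Sums are thus not on the scale of the levels given here. The median difference of the list was 0.20, and Laptm5 (0.38), Fcer1g (-0.36), Cd4 (0.30) and Itgam (0.23, but -0.57 on another probe) differed most. Laptm5 was dim, at -3.44 in A-CEBP and -3.82 in GFP. It differed by 0.66 on another probe and by 0.07 with normexp background. Endothelial cells and muscle use Mef2c. Cdh5, Tek, Tie1 and Emcn were not well above background on either array. Kdr was, at 2.98 in A-CEBP and 2.89 in GFP (0.09, but -0.39 on another probe). So was Egfl7, at 0.25 in A-CEBP and 0.06 in GFP (0.19). The endothelial sum was 3261 units in A-CEBP and 3521 in GFP, again below the brightest-probe signal of 1 gene, Kdr. The 6 measured endothelial genes had a median of 0.14, led by Erg (0.68, but 0.22 with normexp background) and Vwf (-0.58). Next were Esam (0.40, but 0.15 with normexp background) and Pecam1 (-0.20, positive with spike-in scaling). Esam was dim, at -4.34 in GFP. Myod1 and Myog were likewise not well above background, and the muscle sum was 1008 units in A-CEBP and 774 in GFP. The 4 measured muscle genes had a median of 0.36 (0.08 with normexp background and -0.32 without the detection filter), with Tnnt3 at 0.95 (0.24 with normexp background), Acta1 at 0.79, Tnnt1 at -0.30 and Des at -0.06, which turned with spike-in scaling. Myf6 was well above background in GFP alone and at least 2.92-fold lower in A-CEBP. Liver and gut epithelium use Foxa2 and Foxa3. Alb, Hnf4a and Epcam were below that mark on both arrays, and that sum was 5583 units in A-CEBP and 6848 in GFP. Its 4 measured genes had a median of -0.45, Krt8 differed by -1.03 (-0.57 with normexp background), Krt18 by -0.63 (-0.41 with spike-in scaling), Afp by -0.28 and Apoa2 by 0.23, and Cdh1 was at least 2.59-fold higher, seen in A-CEBP alone. The part of such cells in the differences was not tested beyond these values.

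Reference genes were also measured, and not all of their differences were small. Their median was 0.13 over 10 genes, with Actb at 0.12, Hprt at 0.17, Ppia at 0.14, Tbp at 0.09 and Gusb at 0.19. Of the 10, 9 were higher in A-CEBP. The largest differences among these were Gapdh (0.42, with its 7 probes from 0.42 to 0.86) and the hypoxia-responsive glycolytic gene Pgk1 (0.85). In size, that of Pgk1 was near the 0.89 of Sp7. B2m was lower (-0.36). Of 59305 non-control spots on each array, 58.0% were well above background in A-CEBP and 54.6% in GFP, and 0 were saturated.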

How the data were processed

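RNA from ATDC5 cells (1 A-CEBP and 1 GFP sample) was hybridised, as Cy3-labelled cRNA from 0.1 µg total RNA, to 1-colour Agilent arrays of mouse design, per the labels. Scanner files as deposited hold intensity on a linear scale, background-subtracted and detrended within each array per the file headers, and made with Agilent Feature Extraction 10.10.1.1 per the submitters' processing notes. The authors' deposited series table holds the same intensity times 1 constant per array, 1.15 for A-CEBP and 1.24 for GFP. Their basis was not stated. Its column medians are 67.4 for A-CEBP and 70.9 for GFP. It is linear and not centred.

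From the deposited intensity, log2 values minus each array's 75th percentile (906 units for A-CEBP, 872 for GFP) were computed with Python 3.11.15 and pandas 2.3.3. Control spots were left out. The 293 outlier-marked spots were left out of probe and gene values. They were kept in the percentiles, the shares of spots well above background, the spots around each probe and the summed marker signals. Spots of a probe were averaged, and detection needed the mark on over 50% of them. A gene took its brightest probe well above background on both arrays, except in summed marker signals, which average a gene's spots. A gene seen on 1 array got a lower bound: its value there against the higher of the dim value and the lowest value well above background on the other array. These bounds allow for no measurement error and were computed with the main processing only. RefSeq accessions named 27229 of 55671 probes through tables of GRCm38.p6. Both arrays lay on 1 slide and in 1 scan, per the file headers.

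With 1 array per group no test was run. The size rule was 1.5-fold, and code was checked on simulated data. Alternatives (12) covered scaling, background (normexp, limma 3.58.1, offset 50, on median in place of the planned mean spot signals), filters and probe choice. Members, lists and rules were chosen with earlier results of these data known. All 10 genes were named. From each list, genes 2-fold apart were named (up to 6), filled up to 4 by size, with up to 2 bounds, and a fixed set (Cbfb, Sox9, Col2a1, Acan, Col10a1, Mmp13, Ihh, Spp1, Ibsp, Alpl, Actb, Hprt, Ppia, Tbp). Among measured markers of other cell types, Csf1r, Kdr and Egfl7 were named besides. Omitted from the count of targets were the 2 members it held.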

Additional observations from a re-analysis of the deposited data

How the results depend on the processing

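Over 12 alternatives, 120 differences of the 10 genes were recomputed. None of the 5 past 1.5-fold changed sign, and 15 moved by more than 0.19, the SD between probes of a gene. Not all of the 120 could move. Keeping outlier-marked spots and dropping the filter on dim probes left these genes as they were by design, as did probe choice for genes with 1 probe. Scaling on 280 spike-in spots (8 probes) moved the median of all genes to 0.27, against 0.05, and all 10 genes with it. Differences were then -0.22 for Runx1, 0.59 for Runx2, 0.97 for Runx3, 1.12 for Sp7, 0.79 for Mef2c, 0.27 for Mef2d, 0.98 for Dlx5, 0.71 for Dlx6, 0.94 for Foxa2 and 1.09 for Foxa3. Their median was 0.86, and 8 were at least 1.5-fold higher (11.2% of all genes). Sp7 and Foxa3 were at least 2-fold apart, and the share of all genes at that size was not counted with this scaling. Of all genes 1.5-fold apart, 82.1% were then higher, against 55.3%. For the targets in hypertrophic cartilage, spike-in scaling gave a median of 0.70, with 16 genes higher and 1 lower by 1.5-fold. With normexp background, Mef2c differed by 0.34, Dlx6 by 0.18 and Foxa3 by 0.46, and the median of the 10 was 0.40, or 0.36 above that of all genes, against 0.59 (0.48 with the dimmer probes). Genes past 1.5-fold then numbered 402 higher and 369 lower, against 652 and 527. Without the filter on dim probes they numbered 1553 and 1679 of 20657 genes. With the dimmer probe of each gene, an alternative chosen after seeing the data, Runx2 differed by 0.053 and Runx3 by 0.46. Of 132 medians of the other lists, 14 moved by more than 0.19. All 10 genes stayed well above background with the other detection mark. Keeping outlier-marked spots could not change that, since no spot of these genes carried the mark. No paired analysis was possible because each group has 1 sample. Signal over background limits Foxa3, Dlx6 and Mef2c most.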
